A study of Rattus norvegicus with 31 samples.

Results

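Aldehyde dehydrogenases (ALDHs) were examined in the liver transcriptome of 31 female Wistar rats (Crl:WI) exposed to the azole fungicide imazalil (IMZ), the neonicotinoid insecticides thiacloprid (THI) and clothianidin (CTD), or binary mixtures of them. The members were the rows of the count table whose gene symbol was on a list of 10 ALDH genes. The rule found 8 of these 10 among the 26312 genes in the table, namely Aldh1a1, Aldh1a7, Aldh1b1, Aldh1l1, Aldh3a2, Aldh6a1, Aldh7a1 and Aldh9a1, and the other 2 symbols were not analysed here. All 8 were tested, among the 19904 genes that had 2 or more counts when the libraries were summed. The rats were young adults, dosed daily by gavage for 28 days. Of them, 8 were controls given the vehicle, aqueous carboxymethyl-cellulose, in which every compound was suspended. Single compounds were studied in 4 rats at 108 mg/kg bw/day of THI, in 4 rats at 93 mg/kg bw/day of IMZ and in 3 rats at 288 mg/kg bw/day of CTD. The paper marks this CTD group as reduced by killing in moribund condition, and the 3 rats are those it lists. Each mixture was given to 4 rats. THI + IMZ combined THI at 54 with IMZ at 46 mg/kg bw/day, THI + CTD combined THI at 54 with CTD at 134 mg/kg bw/day, and IMZ + CTD combined IMZ at 46 with CTD at 135 mg/kg bw/day. These were the high dose groups, so no dose response can be read from them, and the 6 treatments were all compared with the same 8 controls.

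ALDHs use NAD or NADP to oxidize reactive aldehydes to carboxylic acids. In the liver they act on aldehydes from alcohol, lipid peroxidation and foreign compounds, and several members catalyse single steps in the handling of retinoids, folate, fatty aldehydes, amino acids or carnitine. Aldh1a1 is the cytosolic retinaldehyde dehydrogenase, Aldh1a7 is a rodent paralog close to it in sequence, and Aldh1b1 is a mitochondrial enzyme that accepts acetaldehyde and retinaldehyde.

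The sequence before the annotated start is shown for Aldh1a1, the member raised by all treatments, and for Aldh1b1, the member lowered by 2 of them. Both stretches of 250 bases are from RefSeq in the build GRCr8, read 5′ to 3′ towards the gene and ending at the base before the start. Capitals mark a match to CCAAT or ATGCAAAT on either strand (ATTGG and ATTTGCAT on the other).
Aldh1a1 promoter, chr1:227537370-227537619, plus strand: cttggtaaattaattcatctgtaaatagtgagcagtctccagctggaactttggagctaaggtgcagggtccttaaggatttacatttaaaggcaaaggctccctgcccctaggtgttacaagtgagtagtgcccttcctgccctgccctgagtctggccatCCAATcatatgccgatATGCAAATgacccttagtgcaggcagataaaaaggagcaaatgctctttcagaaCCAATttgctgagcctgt
Aldh1b1 promoter, chr5:64858750-64858999, plus strand: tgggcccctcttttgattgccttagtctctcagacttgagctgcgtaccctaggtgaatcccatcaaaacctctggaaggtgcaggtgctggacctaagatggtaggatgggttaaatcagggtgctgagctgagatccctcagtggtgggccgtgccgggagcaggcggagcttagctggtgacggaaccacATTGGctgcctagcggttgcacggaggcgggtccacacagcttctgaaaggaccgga
Counted from the start, the CCAAT matches of Aldh1a1 began at −88 and −18 and its match to ATGCAAAT, the octamer motif, began at −72. The CCAAT match of Aldh1b1 lay on the other strand at −57. CCAAT was found in 34.0% of the 33469 promoters of this length and in all 7 member promoters available, while ATGCAAAT was found in 1.56% of promoters and, among the members, in that of Aldh1a1. AGGTCA and AGTTCA, short elements read by many nuclear receptors, were found in 14.1% and 12.2% of promoters, TGACNNNGC, the core of the antioxidant response element, in 10.1%, and TATAAA in 12.9%, with none of these 4 in the windows of the 7 members. The motifs do not overlap one another in these windows, and a match or its absence describes letters in a window.

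Library totals ran from 31.8 to 101.2 M counts. The controls had a median of 60.4 M counts and the treated rats of 40.2 M counts. Markers of hepatocytes summed to 166571 to 256683 CPM (counts-per-million, TMM-normalized) in the 31 libraries, against 285 to 643 CPM for Kupffer cells, 205 to 325 CPM for sinusoidal endothelial cells, 278 to 549 CPM for stellate cells and fibroblasts, 9.13 to 20.1 CPM for bile duct cells and 0.578 to 2.48 CPM for lymphocytes. No marker on these lists was at 0 in all libraries. In such bulk samples, fewer cells of a type and less RNA per cell cannot be told apart.

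Of the 48 pairs of member and treatment, 11 passed the test against control (adjusted p under 0.05 over all 19904 genes, edgeR quasi-likelihood test). They came from 3 members. Aldh1a1 was up-regulated by all 6 treatments, Aldh1a7 was up-regulated by THI, CTD and THI + CTD, and Aldh1b1 was down-regulated by CTD and THI + CTD. Per treatment, THI changed 2 of the 8 members, where 0.543% of all genes tested were called, IMZ changed 1 with 0.251% of all genes, and CTD changed 3 with 12.7%. THI + IMZ changed 1 member with 1.18% of all genes called, THI + CTD changed 3 with 4.39%, and IMZ + CTD changed 1 with 1.46%. The median log2 fold change of the 8 members lay between −0.08 and 0.09, beside −0.07 to −0.01 over all genes. The other 5 members did not pass in any treatment, with log2 fold changes from −0.35 to 0.42 and adjusted p of 0.174 or more. The ends of their 95% intervals reached at most 0.84 in absolute value.

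**Figure D1:**
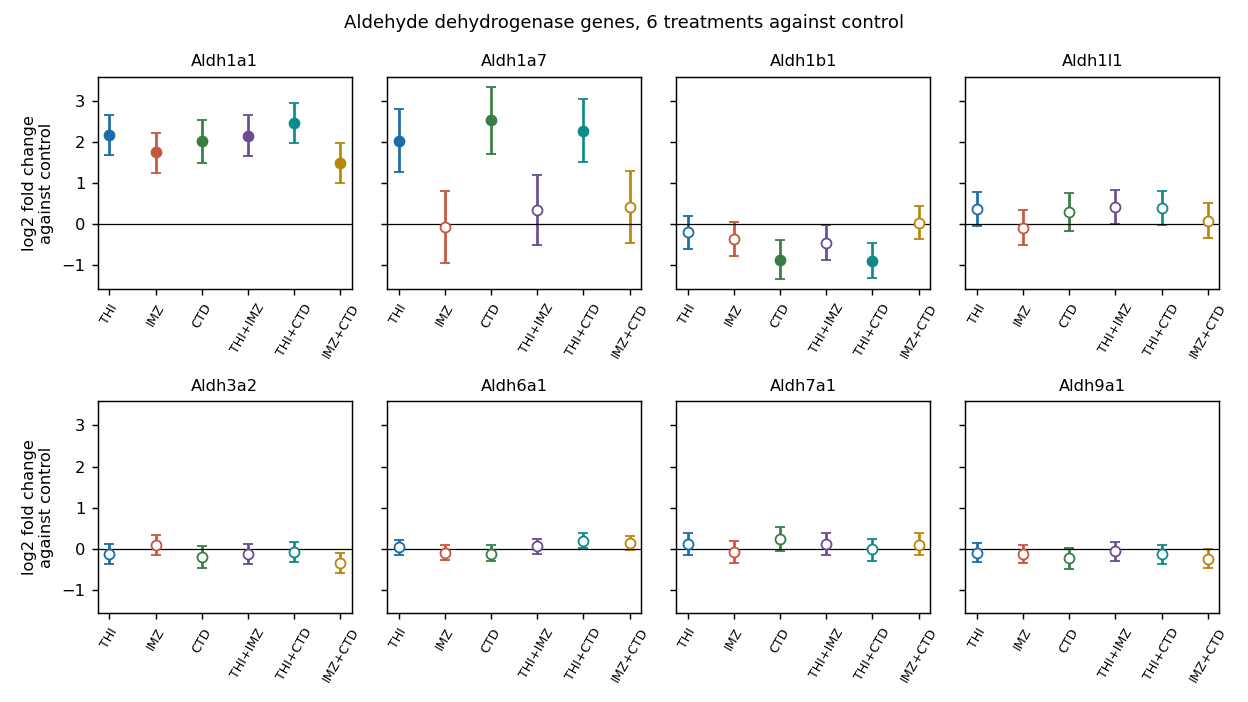
Log2 fold change against the 8 controls (vertical axis) for 8 ALDH genes in 6 treatments, points with 95% intervals from edgeR. Filled points passed an adjusted p of 0.05: all 6 for Aldh1a1, 3 for Aldh1a7, above the line, and 2 for Aldh1b1, below it.

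Aldh1a1 (ENSRNOG00000017619), which forms retinoic acid from retinaldehyde and oxidizes aldehydes of lipid peroxidation, was the member with the largest number of calls. In the 8 controls its TMM-normalized level ran from 46.8 to 172 CPM with a median of 89.5. The THI rats had 436, 287, 458 and 438 CPM, the IMZ rats 212, 349, 387 and 251 CPM, and the CTD rats 253, 489 and 341 CPM. All 11 of these livers lay above the highest control. In the mixtures, the level was 307, 314, 437 and 539 CPM with THI + IMZ, 402, 549, 465 and 568 CPM with THI + CTD, and 172, 348, 219 and 262 CPM with IMZ + CTD. Every rat given THI + IMZ or THI + CTD was above all controls, and 3 of 4 were with IMZ + CTD, the lowest of which was level with the highest control.

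The mean level was 4.53-fold that of control with THI (log2 fold change 2.18 ± 0.24, SE; adjusted p = 7.81e-07), 3.36-fold with IMZ (1.75 ± 0.24, adjusted p = 6.32e-05) and 4.04-fold with CTD (2.02 ± 0.26, adjusted p = 2.35e-06). It was 4.47-fold with THI + IMZ (2.16 ± 0.24, adjusted p = 9.59e-07), 5.55-fold with THI + CTD (2.47 ± 0.24, adjusted p = 5.86e-08) and 2.80-fold with IMZ + CTD (1.49 ± 0.24, adjusted p = 0.000822). Leaving out any 1 of the 31 rats kept all 6 calls, with log2 fold changes from 1.28 to 2.68. In counts thinned to the size of the smallest library, the log2 fold change was 2.18 for THI, 2.46 for THI + CTD and 1.49 for IMZ + CTD, beside 2.18, 2.47 and 1.49 in the full counts.

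**Figure D2:**
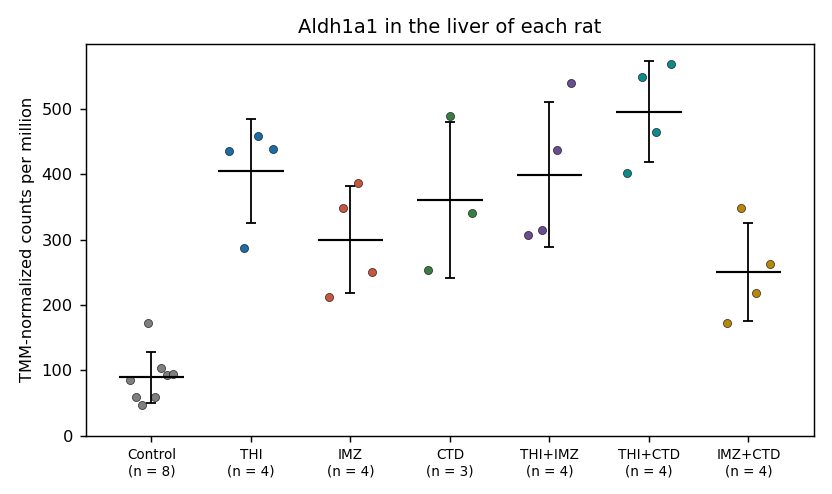
Aldh1a1 in the liver of each rat (points, TMM-normalized CPM), with group mean and SD. The controls reach 172 CPM at most, and all treated rats but the lowest of IMZ + CTD lie above that.

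By mean level, the groups ranked from control at 89.3 ± 39.1 CPM (SD, n = 8) through IMZ + CTD at 250 ± 74.6, IMZ at 300 ± 81.8, CTD at 361 ± 119, THI + IMZ at 399 ± 111 and THI at 405 ± 78.9 to THI + CTD at 496 ± 77.2. Among the treated groups, the ranges of all neighbours in this order overlapped. No direct contrast between compounds passed for Aldh1a1. THI and IMZ differed by 0.43 on the log2 scale (95% interval −0.15 to 1.02), CTD and IMZ by 0.27 (−0.36 to 0.90), and CTD minus THI was −0.16 (−0.80 to 0.47). Of the mixtures, THI + CTD exceeded IMZ + CTD by 0.99 ± 0.29 (95% interval 0.40 to 1.58), which did not pass after adjustment (adjusted p = 0.171), nor did IMZ + CTD minus THI + IMZ at −0.67 (adjusted p = 0.481).

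Across the 31 rats, the genes whose log2 CPM was most like that of Aldh1a1 among 10875 genes were Abcc3 (Pearson r = 0.956), an efflux transporter of conjugates, Gsta3 (0.952) and Gstm1 (0.921), glutathione S-transferases, Cyp2b2 (0.922), a cytochrome P450 known for its induction by phenobarbital, and Mme (0.917), the peptidase neprilysin. These rats share the group differences, and after removal of the group means r was 0.730 for Abcc3, 0.819 for Gsta3, 0.600 for Gstm1, 0.378 for Cyp2b2 and 0.570 for Mme. All 5 genes rose in all 6 treatments. IMZ + CTD gave the smallest log2 fold change for Cyp2b2 (3.65), Abcc3 (1.65) and Gstm1 (0.96), as for Aldh1a1. For Mme the smallest was with THI + IMZ (3.07, beside 3.42 with IMZ + CTD), and Gsta3 had 1.30 with both IMZ and IMZ + CTD. Such likeness follows in part from the choice of these genes by their correlation with Aldh1a1 in the same rats. Among the members, r with Aldh1a1 was 0.652 for Aldh1a7, 0.576 for Aldh1l1 and −0.445 for Aldh1b1. Within groups it was 0.747, 0.679 and 0.147 for these 3 genes.

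Aldh1a7 (ENSRNOG00000017878), the paralog of Aldh1a1, was read with few counts, 5 to 143 per library, so its values carry more counting error. The controls ran from 0.151 to 0.724 CPM with a median of 0.334. Levels were 1.19, 0.976, 1.98 and 1.81 CPM with THI, 1.01, 3.70 and 1.54 CPM with CTD, and 1.86, 1.61, 1.94 and 1.59 CPM with THI + CTD. All 11 rats of these 3 groups were above all controls. With IMZ the level was 0.0964, 0.466, 0.663 and 0.173 CPM, with THI + IMZ 0.234, 0.215, 0.544 and 0.803 CPM, and with IMZ + CTD 0.308, 0.624, 0.529 and 0.450 CPM. In the groups with IMZ, 1 rat of THI + IMZ exceeded the highest control and 1 rat of IMZ fell below the lowest.

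The increase of Aldh1a7 was 4.12-fold with THI (log2 fold change 2.04 ± 0.38, adjusted p = 0.00403), 5.79-fold with CTD (2.53 ± 0.40, adjusted p = 4.45e-05) and 4.86-fold with THI + CTD (2.28 ± 0.37, adjusted p = 0.000345). The log2 fold change was −0.06 with IMZ (95% interval −0.94 to 0.82), 0.34 with THI + IMZ (−0.51 to 1.19) and 0.42 with IMZ + CTD (−0.45 to 1.29), none of which passed. Without the CTD rat at 3.70 CPM, the change with CTD was 1.82 and still passed (adjusted p = 0.0073).

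Aldh1a7 was the member for which a direct contrast of compounds passed. CTD exceeded IMZ by 2.60 ± 0.50 on the log2 scale (adjusted p = 0.00189), where 4.67% of all genes were called and 1 of the 8 members. All 3 CTD rats, from 1.01 CPM, lay above all 4 IMZ rats, up to 0.663 CPM. Without the CTD rat at 3.70 CPM this difference was 1.89 (adjusted p = 0.0397). THI exceeded IMZ by 2.11 ± 0.48 (95% interval 1.13 to 3.08), but in that contrast 2 of 19904 genes passed and Aldh1a7 did not (adjusted p = 0.389). THI + CTD exceeded THI + IMZ by 1.94 ± 0.47 (adjusted p = 0.0751) and IMZ + CTD by 1.86 ± 0.47 (adjusted p = 0.0947), also short of the threshold. Without THI + IMZ replicate 4, the former was 2.40 and passed (adjusted p = 0.0298).

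Aldh1a7 counts per 1000 Aldh1a1 counts were 4.11 ± 1.56 (SD, n = 8) in the controls, 3.65 ± 0.737 with THI, 5.36 ± 1.92 with CTD and 3.63 ± 0.903 with THI + CTD. They were 1.05 ± 0.579 with IMZ, 1.05 ± 0.386 with THI + IMZ and 1.93 ± 0.324 with IMZ + CTD. The 12 rats that received IMZ ran from 0.454 to 2.41, below the lowest of the other 19 at 2.55. The share of Aldh1a7 to Aldh1a1 counts was thus lower in all livers exposed to IMZ, where Aldh1a1 rose and Aldh1a7 did not pass the test. The ratios of 2.41 and 2.55 rest on 18 and 13 Aldh1a7 counts, so the gap between them is small beside counting error. The pair was chosen for these values, so the ratio has no test. The 2 genes are similar in sequence and reads could be lost or misplaced between them in counting, which makes the level of Aldh1a7 uncertain.

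**Figure D3:**
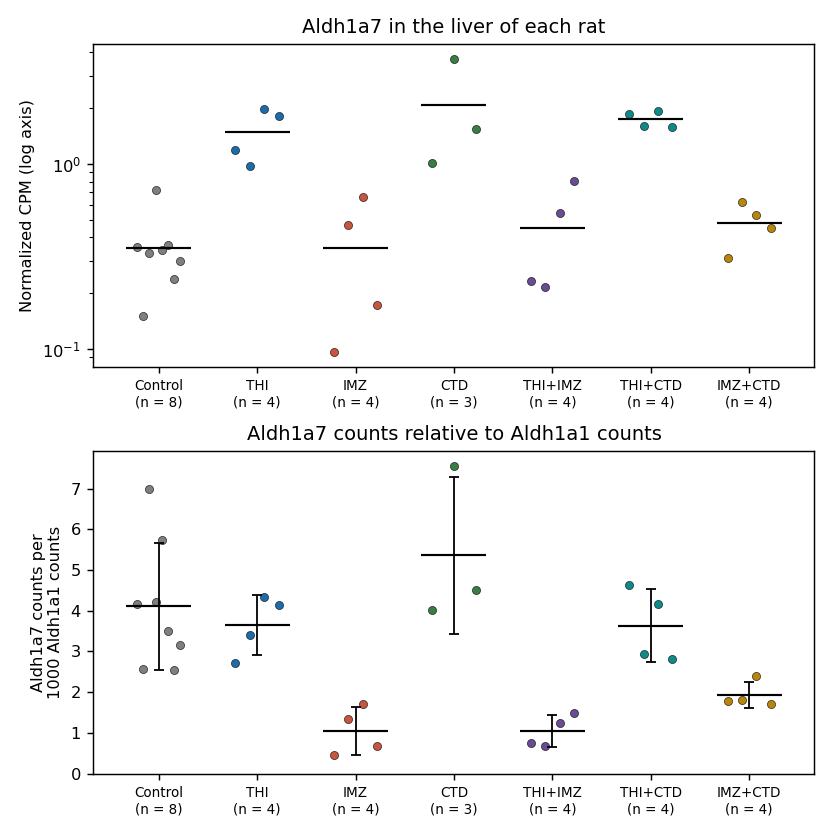
Upper panel, Aldh1a7 per rat in TMM-normalized CPM on a log axis with group means. Lower panel, Aldh1a7 counts per 1000 Aldh1a1 counts with mean and SD. The rats given IMZ, alone or in a mixture, reach 2.41 at most in the lower panel, and all other rats have 2.55 or more.

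Aldh1b1 (ENSRNOG00000011497) was the member that was down-regulated. The controls ran from 114 to 214 CPM with a median of 177. The CTD rats had 83.7, 122 and 83.0 CPM and the THI + CTD rats 90.8, 94.8, 142 and 51.8 CPM. Of these, 2 of 3 and 3 of 4 lay below all controls, so each group overlapped the controls by 1 rat. The log2 fold change was −0.87 ± 0.23 with CTD (adjusted p = 0.0116) and −0.89 ± 0.21 with THI + CTD (adjusted p = 0.0100). The CTD call was lost without CTD replicate 1 (−0.78, adjusted p = 0.0835) or replicate 3 (−0.77, adjusted p = 0.0667), and that of THI + CTD without its replicate 4 (−0.69, adjusted p = 0.0577).

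In the other treatments Aldh1b1 was at 111, 165, 155 and 181 CPM with THI, 108, 180, 138 and 124 CPM with IMZ, 76.3, 144, 174 and 120 CPM with THI + IMZ, and 161, 190, 169 and 203 CPM with IMZ + CTD. None passed, with log2 fold changes of −0.20, −0.35, −0.45 and 0.04. THI + CTD was below IMZ + CTD by 0.93 on the log2 scale (95% interval −1.41 to −0.45) in 4 of 4 rats, but the difference did not pass (adjusted p = 0.0938). Nor did CTD minus THI at −0.67 (adjusted p = 0.121) or CTD minus IMZ at −0.51 (adjusted p = 0.283).

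Marker genes of other cells and zones moved in the same 2 treatments, in which 12.7% (CTD) and 4.39% (THI + CTD) of all genes were called. Of 8 Kupffer cell markers, 3 fell with CTD and 3 with THI + CTD, and their sum was 317 to 456 and 334 to 409 CPM beside 404 to 643 CPM in the controls. Of 8 markers of periportal hepatocytes, 4 fell with CTD and 2 with THI + CTD (sums of 4998 to 6402 and 4684 to 6775 CPM, controls 7192 to 10747 CPM). That sum was also below all controls with THI (5696 to 7083 CPM) and IMZ + CTD (6837 to 7186 CPM), in which Aldh1b1 did not pass. Of 5 red blood cell genes, 4 rose and 1 fell with CTD, where the sum was 127 to 156 CPM beside 23.4 to 55.1 CPM in the controls, and 1 rose with THI + CTD. Of 8 pericentral hepatocyte markers, 1 rose with CTD, and 1 rose and 1 fell with THI + CTD. Their sum was 4931 to 7625 CPM in the controls, 3940 to 5998 CPM with CTD and 3983 to 4618 CPM with THI + CTD, below all controls in the latter, as it was with IMZ (3455 to 4266 CPM). Of 8 hepatocyte markers, 1 fell with CTD and 2 with THI + CTD. Over all 6 treatments, 3 of 8 hepatocyte markers, 2 of 8 endothelial and 4 of 8 stellate cell markers passed in at least 1. The share of all genes that passed in at least 1 treatment is not given beside these counts. With THI + IMZ, 1 hepatocyte marker rose. Endothelial markers fell, 2 with CTD and 1 with THI + CTD. Stellate cell markers went both ways, 1 up and 1 down with CTD and with THI + CTD, and 1 up with IMZ and with THI + IMZ. No bile duct or lymphocyte marker passed by edgeR, and DESeq2 called 1 and 0 of their gene-treatment pairs. An unadjusted p under 0.05 was found in 3 of 36 and 5 of 48 pairs (all-gene share not given). The part of these shifts in the change of Aldh1b1 was not tested.

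**Figure D4:**
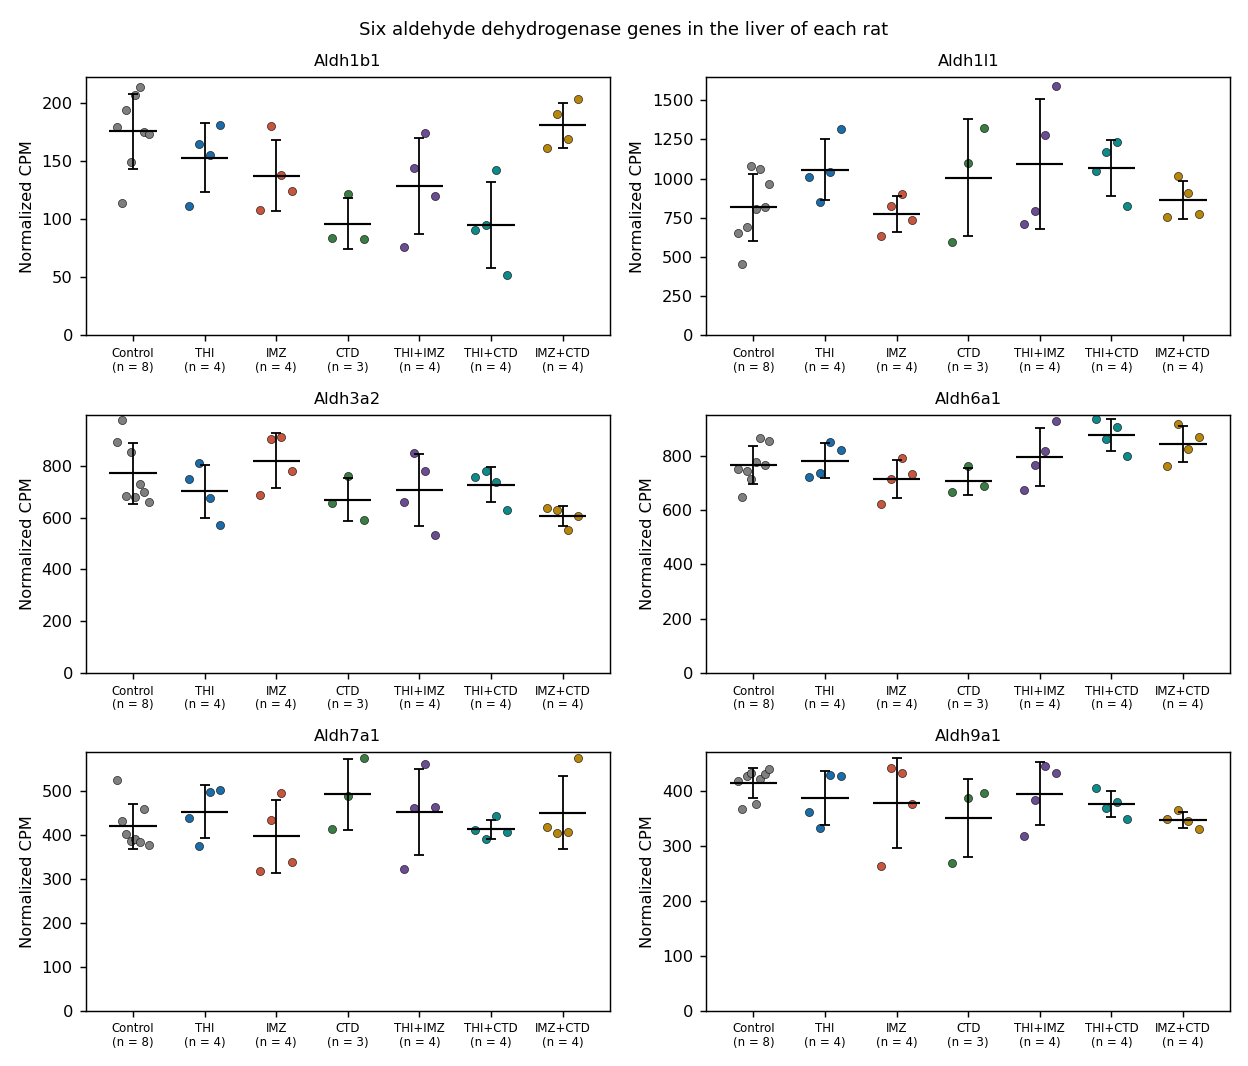
The other 6 ALDH genes in each rat (points, TMM-normalized CPM), with group mean and SD. Aldh1b1 sits lowest with CTD and THI + CTD, with 2 of 3 and 3 of 4 rats below all controls, while the groups of the remaining 5 genes overlap the controls or lie close beside them.

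Aldh1l1 (ENSRNOG00000047023), the cytosolic 10-formyltetrahydrofolate dehydrogenase, ran from 455 to 1084 CPM in the controls with a median of 813. It reached 1591 CPM in a THI + IMZ rat, and 2 of 4 rats with THI + IMZ, 2 of 4 with THI + CTD, 2 of 3 with CTD and 1 of 4 with THI exceeded all controls. None of its log2 fold changes, from −0.08 with IMZ to 0.42 with THI + IMZ (95% interval 0.00 to 0.84), passed the test. Of 12 other folate genes, 4 passed with CTD, where 12.7% of all genes were called. Ftcd, which passes formimino and formyl groups of histidine breakdown to folate, fell (log2 fold change −0.79 ± 0.15, adjusted p = 0.000359), from 465 to 642 CPM in the controls to 259 to 364 CPM, and Shmt1, the cytosolic serine hydroxymethyltransferase, fell by 0.30 (adjusted p = 0.00318). The mitochondrial enzymes Mthfd2 and Mthfd1l rose by 1.77 ± 0.39 (adjusted p = 0.00203) and 0.96 ± 0.28 (adjusted p = 0.0209), both from means under 1 CPM. The call of Mthfd2 was lost without CTD replicate 1 and that of Mthfd1l without replicate 1 or 2. In the other 5 treatments, in which 0.251% to 4.39% of all genes were called, no gene of this list passed by edgeR. Over the 6 treatments, 16 of its 72 gene-treatment pairs had an unadjusted p under 0.05 (all-gene share not given), and DESeq2 called 4.

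Aldh3a2 (ENSRNOG00000002342), the fatty aldehyde dehydrogenase of the endoplasmic reticulum, had 661 to 975 CPM in the controls. Levels were 638, 630, 553 and 607 CPM with IMZ + CTD. All 4 of these rats lay below all controls, although the log2 fold change of −0.35 ± 0.12 did not pass (adjusted p = 0.174). Aldh9a1 (ENSRNOG00000004027), which oxidizes 4-trimethylaminobutyraldehyde in carnitine synthesis, had 368 to 441 CPM in the controls. With IMZ + CTD it was at 350, 365, 345 and 330 CPM, again below all controls in 4 of 4 rats, with a log2 fold change of −0.25 ± 0.11 (adjusted p = 0.332). Over the 6 treatments the changes ran from −0.35 to 0.09 for Aldh3a2 and from −0.25 to −0.07 for Aldh9a1. Of 7 genes of choline, betaine and carnitine metabolism, 0 passed by edgeR or DESeq2. Of their 42 gene-treatment pairs, 6 had an unadjusted p under 0.05 (all-gene share not given).

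Aldh6a1 (ENSRNOG00000011419) is the methylmalonate semialdehyde dehydrogenase of valine breakdown and Aldh7a1 (ENSRNOG00000014645) acts in the breakdown of lysine. Aldh6a1 had 649 to 867 CPM in the controls and its group means spanned 706 with CTD to 876 CPM with THI + CTD (log2 fold change 0.19 ± 0.09, adjusted p = 0.226). Aldh7a1 had 378 to 524 CPM in the controls and group means from 397 with IMZ to 492 CPM with CTD (0.23 ± 0.14, adjusted p = 0.332). Neither changed past the threshold in any treatment. Of 16 other genes of the amino acid pathways in which ALDHs act, 4 passed, all with CTD, where 12.7% of all genes were called. Of them, Hibch and Prodh also passed in other treatments, in which 0.543% to 4.39% of all genes were called. Over the 6 treatments, 22 of the 96 gene-treatment pairs had an unadjusted p under 0.05 (all-gene share not given) and DESeq2 called 13.

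Hibch, which acts before Aldh6a1 in valine breakdown, rose with THI (0.46 ± 0.09, adjusted p = 0.0123), CTD (0.43 ± 0.10, adjusted p = 0.0052), THI + IMZ (0.44 ± 0.09, adjusted p = 0.0128) and THI + CTD (0.43 ± 0.09, adjusted p = 0.00599). Its controls ran from 20.1 to 25.6 CPM and the THI rats from 29.7 to 32.3 CPM, without overlap, as with THI + IMZ and THI + CTD. Hibadh, the enzyme between Hibch and Aldh6a1, rose with CTD alone (0.33 ± 0.10, adjusted p = 0.0268). Prodh, the first enzyme of proline breakdown, fell with CTD (−0.69 ± 0.16, adjusted p = 0.00354), THI + CTD (−0.49 ± 0.14, adjusted p = 0.0425) and IMZ + CTD (−0.59 ± 0.14, adjusted p = 0.0244). Short of the threshold, Prodh was also lower with IMZ (−0.58 ± 0.14, adjusted p = 0.0819), THI + IMZ (−0.45 ± 0.14, adjusted p = 0.14) and THI (−0.30 ± 0.14, adjusted p = 0.557). Prodh2, hydroxyproline dehydrogenase, fell with CTD (−0.49 ± 0.11, adjusted p = 0.00179). Leaving out single rats ended the calls of Prodh in all 3 treatments, of Hibadh, and of Hibch with THI and CTD, while those of Prodh2 and of Hibch with THI + IMZ and THI + CTD were kept.

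Of 19 genes of retinoid metabolism, the pathway of Aldh1a1, 5 passed, with CTD or THI + CTD, and 4 of them are described. With CTD 12.7% of all genes were called, and with THI + CTD 4.39%. Cyp26a1, which degrades retinoic acid and is known to be induced by it, rose with CTD (1.29 ± 0.35, adjusted p = 0.0111) and THI + CTD (1.09 ± 0.32, adjusted p = 0.0442). Its controls had 6.88 to 15.0 CPM, and 2 of 3 CTD rats and 3 of 4 THI + CTD rats were above them. With THI the change of Cyp26a1 was also 1.29 ± 0.32, just short of the threshold (adjusted p = 0.0563), with 3 of 4 rats above all controls. It was 0.85 with IMZ + CTD (4 of 4 rats above), 0.77 with THI + IMZ (3 of 4) and 0.37 with IMZ (1 of 4), none of which passed. Rdh11, a retinal reductase, rose by 0.31 with both CTD and THI + CTD (adjusted p = 0.028 and 0.0301). Rdh7, a retinol dehydrogenase, fell with CTD from 628 to 902 CPM in the controls to 461 to 550 CPM (−0.68 ± 0.11, adjusted p = 9.53e-05), as did Rbp4, the retinol carrier of plasma (−0.34 ± 0.09, adjusted p = 0.00979). With THI, IMZ, THI + IMZ and IMZ + CTD no gene of the list passed, and 0.543%, 0.251%, 1.18% and 1.46% of all genes were called there. Over the 6 treatments, 30 of the 114 gene-treatment pairs had an unadjusted p under 0.05 (all-gene share not given) and DESeq2 called 11. The calls of Cyp26a1 and Rdh11 in both treatments and that of Rbp4 were lost when single rats were left out.

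Of 9 other ALDH genes tested, 1 passed in 1 treatment, IMZ + CTD, where 1.46% of all genes were called. Of the 54 gene-treatment pairs, 8 had an unadjusted p under 0.05 (all-gene share not given) and DESeq2 called 2. Aldh3a1, an aldehyde dehydrogenase known as a target of the aryl hydrocarbon receptor, rose with IMZ + CTD (2.73 ± 0.60, adjusted p = 0.0126) from 0 to 13 counts in the controls to 4, 9, 23 and 11 counts. This call was lost without IMZ + CTD replicate 3 (2.21, adjusted p = 0.149). Scaled for library size, Aldh3a1 was at 0 to 0.125 CPM in the controls and 0.123 to 0.676 CPM with IMZ + CTD. In the other treatments its changes ran from 0.73 with THI through 1.76 ± 0.62 with IMZ to 2.18 ± 0.61 with THI + IMZ (adjusted p = 0.077), and none passed. Of 7 alcohol dehydrogenases and aldehyde oxidases, which form or remove aldehydes, Adh5 passed, with CTD, where 12.7% of all genes were called. Adh5 fell (−0.42 ± 0.09, adjusted p = 0.00176) from 151 to 175 CPM in the controls to 109 to 139 CPM. Of the 42 gene-treatment pairs of this list, 11 had an unadjusted p under 0.05 (all-gene share not given) and DESeq2 called 3.

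The mixtures were set against a theoretical log2 fold change, the sum of the single compounds weighted by their dose in the mixture (0.5 for THI and IMZ, 0.47 for CTD). For Aldh1a1, THI + IMZ had a sum of 1.96 and differed from it by 0.20 (95% interval −0.30 to 0.70), THI + CTD had a sum of 2.04 and differed by 0.44 (−0.07 to 0.94), and IMZ + CTD had a sum of 1.82 and differed by −0.34 (−0.85 to 0.18). None of the 3 passed. For Aldh1a7 the measured changes of THI + IMZ and IMZ + CTD were below the sums of 0.99 and 1.16, by −0.65 (−1.52 to 0.22) and −0.74 (−1.63 to 0.15), and THI + CTD was within 0.07 of its sum (−0.70 to 0.83). For Aldh1b1, IMZ + CTD exceeded the sum of −0.58 by 0.63 ± 0.20 (95% interval 0.22 to 1.03), which did not pass (adjusted p = 0.118).

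By edgeR, 0 of 8 members passed in each of the 3 contrasts with the sum, where 0.0151% (THI + IMZ), 0.286% (THI + CTD) and 1.16% (IMZ + CTD) of all genes were called. Members with an unadjusted p below 0.05 numbered 0, 1 and 3 in that order, beside 6.46%, 9.66% and 14.3% of all genes, and DESeq2 called 0, 0 and 1 of the members. Between compounds, 0 of 8 passed in CTD minus THI (6.62% of all genes) and THI minus IMZ (0.01%), with 1 member each at an unadjusted p under 0.05 (19.3% and 5.15% of all genes) and 0 and 1 called by DESeq2. Between mixtures, 0 of 8 passed in THI + CTD minus THI + IMZ (0.171%), IMZ + CTD minus THI + IMZ (0.0653%) and THI + CTD minus IMZ + CTD (0.176%), with 1, 2 and 3 members at an unadjusted p under 0.05 (10.1%, 8.97% and 10.4% of all genes) and 0, 0 and 1 called by DESeq2. DESeq2 gave Aldh1a7 no adjusted p in THI + CTD minus THI + IMZ, in THI + CTD minus IMZ + CTD and in IMZ + CTD minus its sum, so it could not be called there. The 5 members without a call against control had differences of −0.34 to 0.45 between compounds or mixtures and of −0.29 to 0.27 from the sums.

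**Figure D5:**
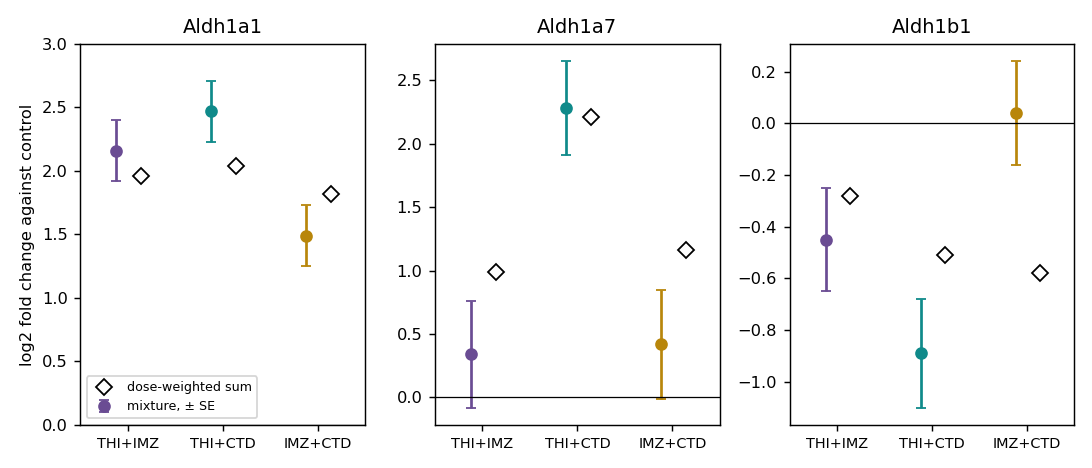
Measured log2 fold change of each mixture (points, ± SE) beside the dose-weighted sum of its compounds (diamonds) for Aldh1a1, Aldh1a7 and Aldh1b1, each panel with its own vertical axis. The widest gap for Aldh1a7 is IMZ + CTD, 0.42 against a sum of 1.16, and for Aldh1b1 it is IMZ + CTD, 0.04 against −0.58.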

How the data were processed

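The authors prepared stranded total RNA libraries, trimmed adapters, mapped reads to Rnor_5.0 with STAR 2.5.2b and deposited counts per Ensembl gene. The annotation release and strand setting are not given in the sources used here. The authors also deposited a signal, their counts scaled with DESeq2 size factors. Only the counts were tested, with edgeR 4.0.16 (R 4.3.3, TMM, 1 model with 7 group means, quasi-likelihood test, Benjamini-Hochberg over 19904 genes). The common biological coefficient of variation was 19.4%. Standard errors are the log2 fold change over the square root of F. Intervals cover 95%.

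Members and gene lists were chosen with earlier results of these data known. All members were named, with list genes past the threshold in a treatment (at most 6 per list, smallest p) and the 5 genes most correlated with Aldh1a1 (average log2 CPM above 0). On simulated counts (19293 genes), changes were placed only in genes above a floor of mean counts, so recovery in genes read less was not measured. Log2 changes of 1 were recovered in 75% to 85% of the changed genes against control and of 2 in 94% to 96%. Alternatives were DESeq2 1.42.0 (Wald test, size factors), filterByExpr, no filter, the 2 groups alone, a replicate block, exact dose ratios, leaving out each rat and, chosen after seeing the data, thinned counts. Promoters were found for 7 of the 8 members. Motifs were chosen after the data had been seen. The result of 1 gene of the retinoid list is not reported here.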

Additional observations from a re-analysis of the deposited data

Results flagged for a closer look

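In 48 checks of a group of 4 or 8 rats for a rat far from the rest, 4 were positive. Chance flags about 1 group in 20. Control replicate 4 had the highest Aldh1a1 (172 CPM, next 104 CPM) and the highest Aldh1a7 (0.724 CPM, next 0.363 CPM) of the 8 controls. THI replicate 2 had the lowest Aldh1a1 of its group (287 CPM, next 436 CPM), and IMZ + CTD replicate 4 the highest Aldh7a1 (574 CPM, next 417 CPM). Without control replicate 4, the log2 fold change of Aldh1a1 was higher in each treatment, from 1.69 with IMZ + CTD to 2.68 with THI + CTD. Of 48 contrasts of a member between compounds or mixtures, 1 passed, the higher Aldh1a7 in CTD than in IMZ (2.60 on the log2 scale).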

How the results depend on the processing

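Aldh1a1 passed in all 6 treatments under every alternative. With the DESeq2 Wald test the genes called rose to 199 for THI, 150 for IMZ, 435 for THI + IMZ, 1386 for THI + CTD, 567 for IMZ + CTD, 1461 for CTD minus IMZ, 12 for THI minus IMZ, 227 for THI + CTD minus THI + IMZ, 78 for IMZ + CTD minus THI + IMZ, 191 for THI + CTD minus IMZ + CTD, and 54, 174 and 603 for THI + IMZ, THI + CTD and IMZ + CTD minus their sums (by edgeR 108, 50, 235, 873, 290, 930, 2, 34, 13, 35, 3, 57 and 230). It called 1 member each in THI minus IMZ (Aldh1a7, 2.11, adjusted p = 0.0159), THI + CTD minus IMZ + CTD (Aldh1b1, −0.94, adjusted p = 0.00992) and IMZ + CTD minus its sum (Aldh1b1, 0.63, adjusted p = 0.0421). filterByExpr gave 391 genes for IMZ + CTD minus its sum, no filter gave 22 for THI + CTD minus THI + IMZ, the 2 groups alone gave 91 for IMZ, and thinned counts gave 7 for IMZ + CTD minus THI + IMZ. Without a filter, Cyp26a1 no longer passed with THI + CTD (adjusted p = 0.0538). In the 2 groups alone, Mthfd1l with CTD (adjusted p = 0.058) and Rdh11 with THI + CTD (adjusted p = 0.0653) no longer passed.

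Replicate numbers did not pair the rats: over 78 same-numbered pairs the median correlation of deviations was 0.024 (−0.229 to 0.286). Replicates 5 to 8 exist in the controls alone, so a block fits each of them exactly and leaves controls 1 to 4 for the comparisons. The effects of the block and of fewer controls on the calls cannot be told apart. With a replicate block, 45 genes passed for THI, 23 for IMZ, 1571 for CTD (2518 without it), 53 for THI + IMZ, 348 for THI + CTD, 80 for IMZ + CTD, 16 for THI + CTD minus THI + IMZ, 6 for IMZ + CTD minus THI + IMZ and 6 for THI + IMZ minus its sum. Of the members 1 passed for THI, as Aldh1a7 was at 1.85 (adjusted p = 0.118). Aldh1b1 did not pass with CTD (−0.77, adjusted p = 0.0503) or THI + CTD (−0.78, adjusted p = 0.064), and Aldh3a2 passed with CTD (−0.40, adjusted p = 0.0476), which it did not without the block. Nor did Hibch pass with THI and THI + IMZ, Mthfd1l with CTD, Cyp26a1 and Rdh11 with CTD and THI + CTD, Prodh with CTD, THI + CTD and IMZ + CTD, and Aldh3a1 with IMZ + CTD. In the block, with IMZ, Aldh1l1 was at 0.12 and Aldh3a2 at −0.05, signs opposite to the fit without it, all uncalled.

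Leaving out each rat gave 67 to 120 genes for THI, 28 to 61 for IMZ, 1470 to 2573 for CTD, 143 to 297 for THI + IMZ, 450 to 969 for THI + CTD, 98 to 366 for IMZ + CTD, 604 to 1389 for CTD minus THI, 491 to 1002 for CTD minus IMZ, 0 to 2 for THI minus IMZ, 0 to 109 for THI + CTD minus THI + IMZ, 1 to 43 for IMZ + CTD minus THI + IMZ, 3 to 47 for THI + CTD minus IMZ + CTD, and 1 to 9, 30 to 75 and 66 to 285 for the mixtures minus their sums. Members called were 2 to 3 for CTD and for THI + CTD and 0 to 1 for THI + CTD minus THI + IMZ. Uncalled values that changed sign were, against control, Aldh1a7 with IMZ (−0.58 to 0.27) and THI + IMZ (−0.11 to 0.58), Aldh1b1 with IMZ + CTD (−0.03 to 0.09), Aldh1l1 with IMZ (−0.17 to 0.01) and IMZ + CTD (−0.01 to 0.15), Aldh6a1 with THI (−0.02 to 0.07) and THI + IMZ (−0.02 to 0.13), Aldh7a1 with IMZ (−0.20 to 0.01), THI + IMZ (−0.01 to 0.24), THI + CTD (−0.06 to 0.03) and IMZ + CTD (−0.04 to 0.16), and Aldh9a1 with IMZ (−0.21 to 0.01) and THI + IMZ (−0.13 to 0.02). Between groups they were Aldh1a1 in CTD minus THI (−0.44 to 0.04) and CTD minus IMZ (−0.01 to 0.47), Aldh1a7 in CTD minus THI (−0.22 to 0.82), IMZ + CTD minus THI + IMZ (−0.15 to 0.53) and THI + CTD minus its sum (−0.09 to 0.40), and Aldh1b1 in THI + IMZ minus its sum (−0.35 to 0.01). The causes were not tested. Low counts limit Aldh1a7, with 5 to 143 counts per library.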
